A study of Mus musculus with 6 samples.

Results

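The genes compared here are 9 of the complement system (C1qa, C1qb, C1qc, C3, C3ar1, C5ar1, Cfp, Cfb and Cd55), in CD45+ blood-lineage cells of the gut-draining mesenteric lymph node (mLN) and of the spleen. They were taken by symbol through the GENCODE M21 annotation and are 9 of the 55487 gene identifiers in the tables. Total CD45+ cells were sorted fresh from wild-type C57BL6/J mice and their polyA RNA was sequenced, in 3 mLN and 3 spleen libraries of 12584244 to 18119551 expected read counts. The labels name no further treatment, and the cells are a mixture of all leukocytes. The labels do not state whether replicates are different mice, so the p-values speak only of the spread among these 6 libraries, which could be technical.

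Complement is a cascade of plasma and surface proteins that tags particles for uptake and calls in leukocytes. C1q, the recognition part of the classical pathway, is built from A, B and C chains encoded by C1qa, C1qb and C1qc, and unlike most complement proteins, which come from the liver, it is made mainly by macrophages and dendritic cells. C3 is the central component, factor B (Cfb) and properdin (Cfp) form and stabilise the alternative convertase that cleaves it, C3ar1 and C5ar1 receive the released peptides C3a and C5a, and CD55 takes convertases apart on the cell's own surface.

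The C1q genes did not pass the test for a tissue difference, while the other members that could be tested all did, in different directions. Cfb was 4.55-fold higher in mLN. C5ar1 was 4.04-fold and Cfp 2.29-fold lower in mLN, and C3 and Cd55 were each 1.24-fold lower. Of the 9 genes, 8 passed the filter on low counts. By edgeR's quasi-likelihood test at a Benjamini-Hochberg adjusted p under 0.05, 1 was called higher and 4 lower in mLN. Calls did not follow the size of change alone. C1qa, not called (edgeR adjusted p = 0.0533), had a log2 fold change (mLN over spleen) of 0.32. C3 and Cd55, both called, had changes of similar size (-0.31 each). Over the mLN libraries C1qa had 603 reads, C3 4668 and Cd55 11099. The background is high: of the 14427 genes tested, 45.5% were called, 21.8% higher and 23.8% lower, so 5 of 8 tested members is not far from the share among all expressed genes. The tissues did not overlap in counts per 1000000 library counts (CPM) for 6 of the 8 (all but C1qb and C1qc), beside 52.9% of all genes tested. The median log2 fold change of the 8 tested members was -0.07, beside -0.0018 over all genes tested. In bulk RNA, fewer cells of a type and less RNA per cell cannot be told apart.

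**Figure D1:**
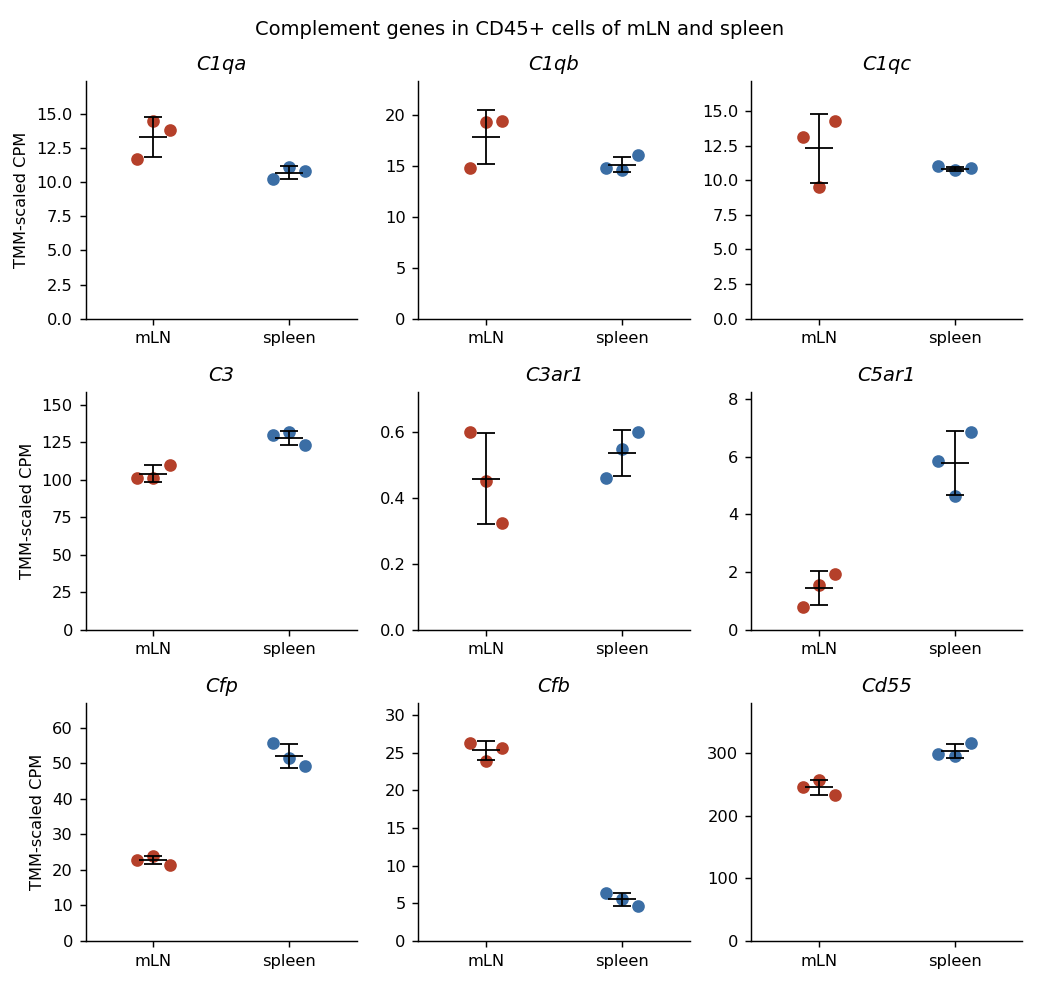
Level of each of the 9 genes in TMM-scaled CPM (linear axis from 0) in each library, mLN left and spleen right; points are libraries, and bars give the mean and SD of 3. Cfb stands at 23.9 to 26.3 CPM in mLN and 4.6 to 6.38 CPM in spleen with no overlap, while C1qb and C1qc overlap between the tissues.

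The C1q genes lie side by side on the minus strand of chromosome 4 (GRCm38), within 18675 bases. C1qb (136880129 to 136886187) is followed after 3616 bases by C1qc (136889804 to 136893065) and after a further 2851 by C1qa (136895917 to 136898803). Of the genes on either side, Ephb2 averaged 0.573 CPM in mLN and 0.44 CPM in spleen, and Epha8 0.101 CPM in mLN with no counts in spleen. Of the 9 genes, 7 had an entry among the RefSeq promoter sequences (GRCm38.p6), and those of C1qb and C1qc are shown because these genes share a locus. The C1qb stretch is chr4:136886201-136886450 and that of C1qc chr4:136893066-136893164, both read on the minus strand, 5′ to 3′. The C1qc stretch is shorter since the 151 bases nearest its RefSeq start lie within the GENCODE gene. Capitals mark GAGGAA, the core bound by the myeloid factor PU.1, on either strand (TTCCTC is its reverse complement).
C1qb: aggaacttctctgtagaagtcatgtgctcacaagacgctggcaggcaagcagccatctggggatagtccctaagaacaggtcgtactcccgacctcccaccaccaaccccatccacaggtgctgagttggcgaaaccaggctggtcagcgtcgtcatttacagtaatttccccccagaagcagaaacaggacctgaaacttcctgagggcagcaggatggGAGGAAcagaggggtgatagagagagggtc
C1qc: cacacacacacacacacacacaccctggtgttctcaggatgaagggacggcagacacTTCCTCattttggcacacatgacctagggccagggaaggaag
Each holds 1 match, at position -30 in C1qb and -193 in C1qc, counted from the RefSeq start. GAGGAA occurs in 23.3% of the 32851 upstream windows of 250 bases in that table, so a match is common. Neither the core of the interferon-stimulated response element (GAAA, any 2 bases, GAAA, in 2.98% of windows) nor TTGCNNCAA (the C/EBP core, in 1.74%) was found in the windows of C1qb, C1qc, C3, C3ar1, C5ar1, Cfp or Cd55, and GAGGAA was found in none of those outside the C1q locus. These are letters in a window and say nothing of binding.

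C1qa, which encodes the A chain, stood at 11.7, 14.5 and 13.8 CPM in the mLN libraries, against 10.2, 11.1 and 10.8 CPM in the spleen libraries. All 3 mLN libraries lay above all 3 spleen libraries, by a margin of 0.6 CPM at the closest. The log2 fold change (mLN over spleen) was 0.32 with an SE of 0.136 (95% interval 0.04 to 0.59, edgeR adjusted p = 0.0533). C1qb, the B chain gene, stood at 14.8, 19.3 and 19.4 CPM in mLN and at 14.8, 14.6 and 16 CPM in spleen. Its first mLN library sat among the spleen libraries and the other mLN libraries above them (log2 fold change 0.24, 95% interval -0.01 to 0.48, edgeR adjusted p = 0.108). C1qc, the C chain gene, stood at 13.1, 9.5 and 14.3 CPM in mLN and at 11, 10.7 and 10.9 CPM in spleen. The mLN libraries fell on both sides of the spleen libraries, which were close together (log2 fold change 0.17, 95% interval -0.13 to 0.46, edgeR adjusted p = 0.377). Thus 0 of 3 C1q genes were called by edgeR and 1 had an unadjusted p under 0.05, and DESeq2 and limma-voom gave the same counts. The intervals leave out a 2-fold change of any C1q gene in either direction. Without mLN replicate 1, C1qa (log2 fold change 0.41, edgeR adjusted p = 0.0205) and C1qb (0.36, adjusted p = 0.0174) were called higher in mLN. The absence of a call for C1qa and C1qb is thus sensitive to that library, though neither was called in the other 15 of 16 alternatives. Without mLN replicate 2 the edgeR adjusted p was 0.211 for C1qa and 0.341 for C1qb. C1qc was not called without mLN replicate 1 (0.11, edgeR adjusted p = 0.618). Over all 16 alternatives tried, the adjusted p ran from 0.0205 to 1 for C1qa and from 0.0174 to 1 for C1qb.

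Summed over the 3 chains, C1q took 39.6, 43.3 and 47.5 CPM in mLN and 36, 36.3 and 37.7 CPM in spleen. Per transcript length, in the authors' TPM (a level scaled for length and to a fixed total), C1qb was the highest of the 3 chains in each of the 6 libraries. The TPM of C1qa was 0.793 ± 0.0423 of that of C1qb in mLN and 0.749 ± 0.0495 in spleen (SD, n = 3 each, exact two-sided permutation p = 0.3, adjusted over 2 ratios 0.6). The TPM of C1qc was 0.621 ± 0.174 of that of C1qb in mLN and 0.634 ± 0.0268 in spleen (exact permutation p = 0.9, adjusted 0.9). The wide spread in mLN came from replicate 2, where the ratio was 0.435, against 0.78 and 0.648 in the other mLN libraries and 0.604 to 0.653 in spleen. In counts, C1qc made up 21.9% of the C1q reads of mLN replicate 2 (169 of 770, 95% Wilson interval 19.2 to 25), below the intervals of the other 5 libraries, where it made up 28.8% to 33.1%. These intervals cover counting error only.

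**Figure D2:**
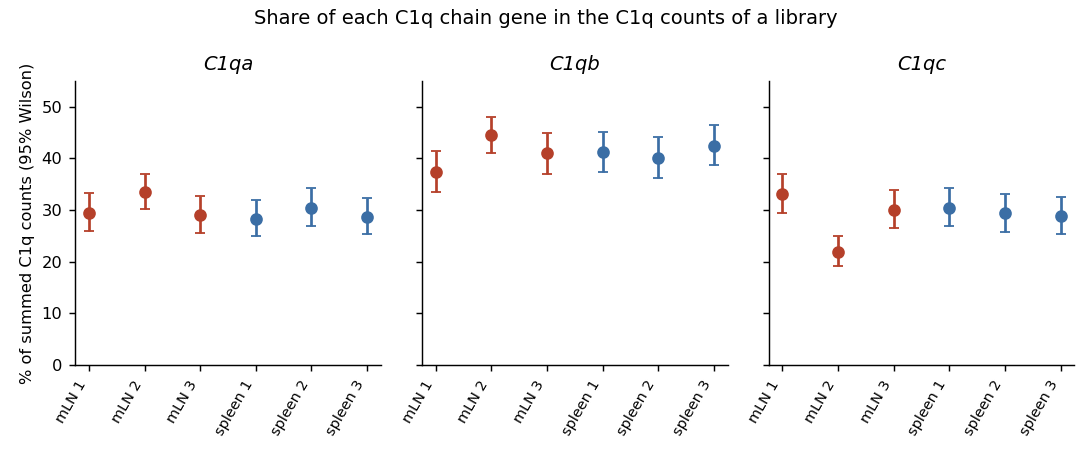
Share of C1qa, C1qb and C1qc in the summed C1q counts of each library, in percent with 95% Wilson intervals, mLN libraries left and spleen libraries right. C1qc in mLN replicate 2 (21.9%) lies apart from the other 5 libraries (28.8% to 33.1%).

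C1q stood between macrophage genes that changed in opposite directions. Adgre1, a surface receptor gene widely used to mark macrophages, stood at 11.1, 13.9 and 15.4 CPM in mLN and at 35, 32.5 and 36.2 CPM in spleen (log2 fold change -1.37, edgeR adjusted p = 1.28e-14). Siglec1, a receptor of sinus and marginal-zone macrophages, went the other way, with 20.3, 16.6 and 16.3 CPM in mLN and 2.01, 1.04 and 1.97 CPM in spleen (3.40, adjusted p = 1.36e-18). Marco, a scavenger receptor of such cells, averaged 20.4 ± 1.38 CPM in mLN and 0.354 ± 0.153 CPM in spleen. Spic, a transcription factor gene of red-pulp macrophages, averaged 2.58 ± 0.351 CPM in mLN and 4.24 ± 0.51 CPM in spleen. The summed C1q level per level of Adgre1 was 3.57, 3.12 and 3.08 in mLN and 1.03, 1.12 and 1.04 in spleen. Per level of Siglec1 it was 1.95, 2.6 and 2.92 in mLN and 17.9, 35.1 and 19.1 in spleen. Against Csf1r, the growth factor receptor gene of the monocyte-macrophage lineage, it was 0.329, 0.389 and 0.422 in mLN and 0.266, 0.268 and 0.296 in spleen. The tissues did not overlap in any of these 3 ratios, which are of CPM and compare tissues, not the levels of different genes. Against Mertk, a receptor for uptake of dying cells with 1.5 ± 0.606 CPM in mLN and 2.71 ± 1.47 CPM in spleen, the ratios overlapped (31.2, 19.7 and 45.1 in mLN and 16.9, 8.28 and 23.4 in spleen).

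**Figure D3:**
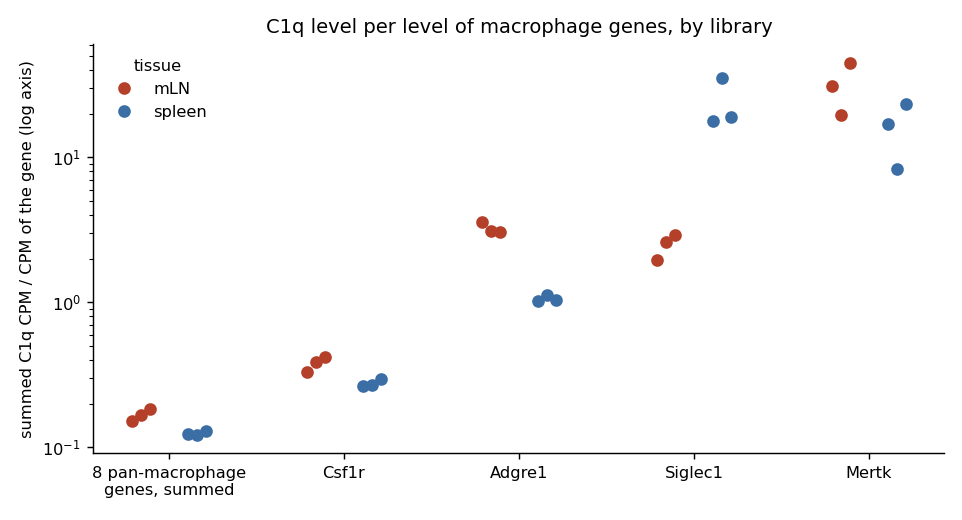
Summed CPM of C1qa, C1qb and C1qc divided by the CPM of macrophage genes (log axis), one point per library, mLN left and spleen right in each pair. Per Adgre1 the mLN libraries lie higher (3.08 to 3.57 in mLN and 1.03 to 1.12 in spleen), per Siglec1 lower (1.95 to 2.92 in mLN and 17.9 to 35.1 in spleen).

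C3 was the second most abundant member by count (chromosome 17, 57203970 to 57228136). It stood at 101, 101 and 110 CPM in mLN and at 130, 132 and 123 CPM in spleen. All mLN libraries lay below all spleen libraries (log2 fold change -0.31, SE 0.0451, edgeR adjusted p = 2.6e-07). The length that RSEM assigned to C3, an average over its 4 listed transcripts weighted by their estimated abundance, ranged from 4250 to 5056 bases in mLN and from 3987 to 5136 bases in spleen. With the effective length as an offset the log2 fold change was -0.36 (adjusted p = 0.0397). The call was lost where a coefficient of variation of 0.2 was assumed in place of the 0.055 estimated (adjusted p = 0.503). Over the 16 alternatives the adjusted p ran from 1.21e-10 to 1.

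Cfb encodes factor B, the protease that joins with C3b in the alternative convertase (chromosome 17, 34856374 to 34862518). It was the sole member higher in mLN among those called, with 26.3, 23.9 and 25.6 CPM in mLN against 6.38, 5.6 and 4.6 CPM in spleen. The gap between the tissues was many times the spread within either (log2 fold change 2.19, SE 0.134, edgeR adjusted p = 1.02e-17). Its average transcript length also did not overlap between tissues, at 2174, 2517 and 2204 bases in mLN and 2705, 2573 and 2670 bases in spleen, and Cfb has 8 listed transcripts. The gene Gm20547 overlaps Cfb on the same strand and was given 2.18, 0 and 1.26 CPM in the spleen libraries and none in mLN, so reads may have been split between them. With both summed, an alternative chosen after seeing the data, the log2 fold change was 1.91 (adjusted p = 1.2e-15, with 8.58e-58 to 0.000445 over the 17 alternatives).

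Cfp, which encodes properdin, the stabiliser of that convertase (chromosome X, 20925454 to 20931555), was lower in mLN, with 22.8, 23.8 and 21.5 CPM in mLN against 55.8, 51.5 and 49.2 CPM in spleen. All mLN libraries lay below all spleen libraries (log2 fold change -1.20, SE 0.0797, edgeR adjusted p = 1.6e-16). The call was lost with an assumed coefficient of variation of 0.4 (adjusted p = 0.141), and over the 16 alternatives the adjusted p ran from 9.82e-47 to 0.141. C3, Cfb and Cfp, which act in one pathway, thus had log2 fold changes of -0.31, 2.19 and -1.20. Cfd, the gene of factor D that cleaves factor B, had no counts in any library, which allows up to 0.169 to 0.243 CPM in a library by 3 counts.

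Among receptors, C5ar1, which binds C5a (chromosome 7, 16246743 to 16259540), stood at 0.801, 1.57 and 1.94 CPM in mLN, from 12, 28 and 24 reads. In spleen it stood at 5.86, 4.63 and 6.87 CPM, from 102, 76 and 115 reads. All mLN libraries lay below all spleen libraries (log2 fold change -2.02, SE 0.294, edgeR adjusted p = 2.09e-07). C3ar1, the C3a receptor gene (chromosome 6, 122847138 to 122856161), did not pass the filter, with 9, 8 and 4 reads in the mLN libraries and 8, 9 and 10 in the spleen libraries. The ratio of summed reads per depth was 0.871 in mLN over spleen with a 95% exact interval of 0.468 to 1.6 from counting error alone, so a difference of the size seen for C5ar1 lay outside it. Cd55 (chromosome 1, 130439027 to 130462744) was the most abundant member, with 245, 256 and 233 CPM in mLN and 298, 295 and 316 CPM in spleen. All mLN libraries lay below the spleen libraries, by a small margin against the level (log2 fold change -0.31, SE 0.0349, edgeR adjusted p = 8.25e-10). With an assumed coefficient of variation of 0.2 its adjusted p was 0.488, and over the 17 alternatives it ran from 2.3e-18 to 1. Its near copy Cd55b was at or under 0.54 CPM in every library.

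Whether C1qa moved unlike each other member was examined by the log2 ratio of their CPM within each library, for 8 ratios. The ratio of C1qa to C5ar1 was higher in mLN by 2.40 (3.87, 3.20 and 2.82 in mLN and 0.80, 1.26 and 0.65 in spleen), and to Cfp by 1.51. To C3 and to Cd55 it was higher by 0.62 each, and to Cfb it differed by -1.89 (-1.17, -0.72 and -0.89 in mLN and 0.67, 0.98 and 1.23 in spleen). In these 5 ratios the tissues did not overlap, and each had an exact two-sided permutation p of 0.1, the smallest that 3 against 3 allows, or 0.16 adjusted over the 8. The ratios to C1qb, C1qc and C3ar1 overlapped, with differences of 0.08, 0.15 and 0.57 (exact permutation p = 0.3, 0.9 and 0.3). No ratio could reach a p under 0.05 in this design.

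Per length, the order of levels differed in places. In mLN, Cd55 led with 171 ± 11.1 TPM, and C3 (34.5 ± 4.68), C1qb (29.4 ± 4.34), Cfp (23.5 ± 1.48), C1qa (23.2 ± 2.57), C1qc (17.9 ± 3.59) and Cfb (17.6 ± 2.33) followed, each with a range overlapping the next. C5ar1 (1.02 ± 0.201 TPM) and C3ar1 (0.16 ± 0.05 TPM) lay below without overlap. In spleen no neighbours in the order overlapped: Cd55 (223 ± 5.96 TPM), Cfp (58.8 ± 5.28), C3 (45.5 ± 6.29), C1qb (25.9 ± 1.33), C1qa (19.4 ± 0.778), C1qc (16.4 ± 0.306), C5ar1 (5.52 ± 0.468), Cfb (3.37 ± 0.523) and C3ar1 (0.197 ± 0.0252), all SD with n = 3. Cfp thus stood second in spleen and among the C1q genes in mLN.

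The other complement genes, 43 from a list sorted by role, were mostly scarce. No counts in any library were found for 10 of them (C1rb, Mbl1, Mbl2, Colec10, Cfd, C7, C8b, C9, Cfi and Vtn), 25 did not pass the filter, and of the 18 that did, 1 was higher and 8 lower in mLN by edgeR, near the 45.5% called of all genes tested. Of these 18, 4 reached the count filter's level in all libraries of 1 tissue alone. The median log2 fold change of the 18 was -0.26, beside -0.0018 over all genes tested. The C1 proteases and the lectin, C2 and C4 genes had 1 call among 6 tested: Fcnb, which encodes the myeloid lectin ficolin B, had no reads in mLN and 8.67 CPM in spleen, at least 131-fold lower in mLN against a floor of 3 reads over the mLN libraries. It could pass the filter through spleen alone. Of the terminal pathway, C6 alone was tested and was not called (log2 fold change 0.43, adjusted p = 0.284).

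Of the complement receptor genes outside the members, 5 of 6 tested were lower in mLN and 1 higher, beside 23.8% lower and 21.8% higher of all genes tested. Cr2, which in the mouse encodes complement receptors 1 and 2 of B cells and follicular dendritic cells, averaged 154 ± 5.92 CPM in mLN and 428 ± 1.63 CPM in spleen (log2 fold change -1.47, edgeR adjusted p = 1.04e-32). C5ar2, the second C5a receptor gene, had 23 reads in mLN and 113 in spleen, a log2 fold change of -2.10. It reached the level of the count filter in 1 mLN library and in all 3 spleen libraries, so it too could pass through spleen alone. Itgam, the alpha chain of complement receptor 3, fell by 1.64 on the log2 scale and Cd93, a surface lectin gene, by 1.72. Itgb2, the beta chain shared by complement receptors 3 and 4, was the gene that rose (0.26, edgeR adjusted p = 5.59e-10, lost at 0.614 with an assumed coefficient of variation of 0.2), and is named here after its value was seen, as was Itgax, the alpha chain of receptor 4 (-0.95). Vsig4, a C3b receptor of resident macrophages, had 4 reads, all in 1 spleen library. Of the 3 membrane regulators tested outside the members, 2 were not called. Cr1l, 1 of these 2, averaged 101 ± 1.29 CPM in mLN and 93.3 ± 5.93 CPM in spleen (log2 fold change 0.11). Cd59a, a blocker of the membrane attack complex, fell by 3.10 on the log2 scale. It had 7 reads in mLN and 69 in spleen, and also could pass the filter through spleen alone. Of the 7 reads, 6 were in mLN replicate 2, and the log2 fold change was -4.94 without that library and -2.55 without mLN replicate 1.

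**Figure D4:**
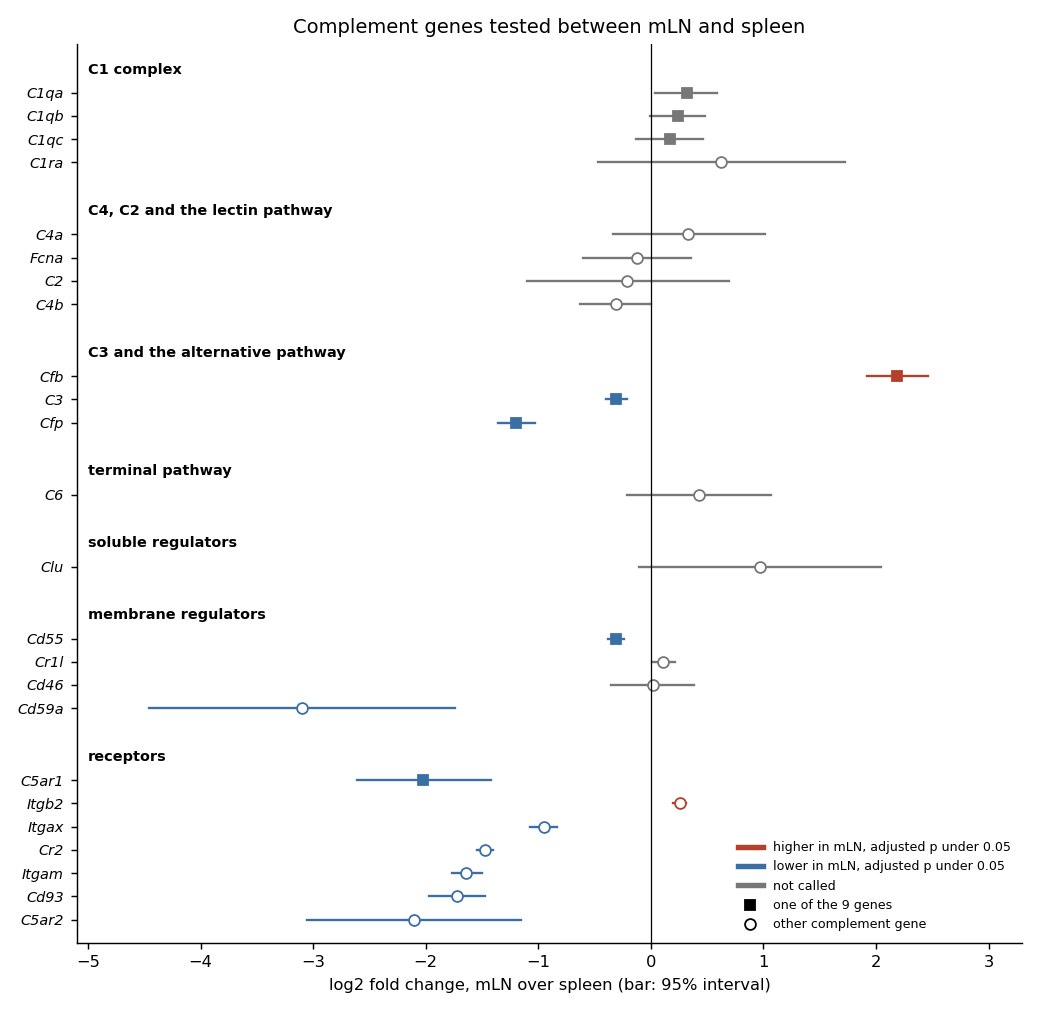
Log2 fold change (mLN over spleen) with its 95% interval for complement genes that passed the filter, grouped by role; filled squares are members, open circles other genes, and colour gives the edgeR call. Fcnb, with no reads in mLN, is left out, and not every gene is shown. Cfb (2.19) stands at the right end, the C1q genes at 0.17 to 0.32, and C5ar1 (-2.02) among the receptors at the left.

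Marker lists of cell types that CD45+ cells can hold were set beside these genes. The 10 neutrophil genes summed to 18.9 to 19.3 CPM in mLN and 1368.5 to 1397.2 CPM in spleen, with all 10 lower and Ly6g at 0 in mLN. Of these 10, 8 reached the level of the count filter in all libraries of 1 tissue alone, so they too could pass through spleen alone. The 8 monocyte genes summed to 511 to 535 CPM in mLN and 658 to 684 CPM in spleen (6 lower, 2 higher). The part of either in the lower C5ar1, Cfp or Itgam was not tested. The 8 pan-macrophage genes summed to 258 to 261 CPM in mLN and 289 to 299 CPM in spleen (2 higher, 4 lower), the 7 red-pulp genes to 34.6 to 38.6 CPM in mLN and 105 to 117 CPM in spleen (7 lower). The 4 sinus and marginal-zone genes summed to 41.4 to 43 CPM in mLN and 1.64 to 2.64 CPM in spleen (3 higher), with Cd209b at 0 in spleen. Of the 3 tested, 2 reached the level of the count filter in all libraries of 1 tissue alone, so they could pass through mLN alone. The 4 resident and tingible-body macrophage genes overlapped, summing to 46.8 to 47.3 CPM in mLN and 42.6 to 47.9 CPM in spleen (1 higher, 1 not called, 2 not tested). The 7 migratory dendritic-cell genes summed to 248 to 253 CPM in mLN and 185 to 196 CPM in spleen (5 higher, 1 lower), and the 10 conventional dendritic-cell genes to 415 to 430 CPM in mLN and 786 to 828 CPM in spleen (7 lower). Each of these 2 sums was mostly 1 gene. Il4i1, the migratory gene that was lower, averaged 137 CPM in mLN and 175 CPM in spleen. Wdfy4, of the conventional list, averaged 393 CPM in mLN and 741 CPM in spleen. The 7 B-cell genes summed to 2889.8 to 2935.1 CPM in mLN and 4916.4 to 5022.7 CPM in spleen (7 lower), and the 6 T-cell genes to 1308.3 to 1340.9 CPM in mLN and 576 to 584 CPM in spleen (6 higher). The part of these lists in the levels of C1q, C3, Cfb, Cd55 and Cr2 was not tested. The 10 genes of stroma and endothelium, which lack CD45, summed to 1.6 to 2.76 CPM in mLN and 2.7 to 4.45 CPM in spleen, with Pdpn and Ccl19 at 0 in both tissues. The 5 erythroid genes summed to 3.97 to 5.57 CPM in mLN and 844 to 882 CPM in spleen (5 lower, with Car1 at 0 in mLN). Of these 5, 4 reached the level of the count filter in all libraries of 1 tissue alone, so they could pass through spleen alone. Such a gene was also 1 of the 8 monocyte genes and 1 of the 7 migratory dendritic-cell genes.

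Likeness of pattern was measured as the Euclidean distance between log2 CPM profiles over the 6 libraries, each centred on its gene's mean, among 9000 tested genes that average at least 10 CPM (9001 for C5ar1). From C1qa, C1qb lay at a distance of 0.199, rank 87 of 9000, and C1qc at 0.624, rank 6076. The distance to C1qc lay mostly in mLN replicate 2, where the log2 ratio of C1qa to C1qc was 0.61, against -0.16 to 0.06 in the other libraries. The nearest to C1qa were Gimap1os (0.109), Dph2 (0.113) and Hdhd5 (0.116), and to C1qc, Nipsnap2 (0.14), Alg8 (0.145) and Faap20 (0.174). The nearest to C1qb were Nrarp (0.0635), Tmem62 (0.108) and Rbbp5 (0.123). The nearest to Cfp were Fes (0.0844), Plekhg3 (0.102) and Cecr2 (0.124), and to Cfb, Slc16a5 (0.305), St8sia1 (0.395) and Art2b (0.421). The nearest to Cd55 were Ypel5 (0.0361), Sypl (0.057) and Ssr1 (0.0651), and to C3, Brpf3 (0.0626), Ctnna1 (0.0696) and Hook3 (0.0709). For C5ar1 they were Ighv1-9 (0.658), Abcb10 (0.787) and Ccl6 (0.801).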

How the data were processed

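PolyA RNA of CD45+ cells was sequenced from directional libraries, 3 of mLN and 3 of spleen, per the labels. STAR, RSEM and build mm10 are named in the submitters' processing notes. Versions, annotation and strand setting: not given in the sources used here. Per library, the authors deposited an expected count (an estimate that splits shared reads and need not be whole), TPM and transcript lengths for each gene. Of 55487 identifiers, 55227 matched a GENCODE M21 symbol (GRCm38, the assembly also called mm10). The rest held 0.0142% to 0.0189% of a library's counts. Libraries held 12584244 to 18119551 expected counts, and pairs within a tissue differed by more than counting noise (2.52 to 2.97 times), so all 6 were kept.

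Expected counts were rounded, filtered with filterByExpr (14427 genes), scaled by TMM and tested by quasi-likelihood in edgeR 4.0.16 (R 4.3.3), with tissue as the only term. Adjustment (Benjamini-Hochberg) ran over the whole table. Alternatives used DESeq2 1.42.0, limma 3.58.1, other scalings and filters, a length offset, assumed coefficients of variation, a replicate block and leaving out each library. Members, lists and naming rules were chosen with earlier results of these data known. Genes outside the members are named where they were called with at least 1 CPM in the higher tissue, up to 3 a role by absolute fold change, beside a few fixed ones. Reads of near-identical copies (Cd55 and Cd55b, C4a and C4b) and of overlapping genes may be divided wrongly. The Wilson and exact intervals and the floors cover counting error only. The intervals of log2 fold changes come from the edgeR fit and also take in the estimated spread among libraries. Results of some genes are not reported here.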

Additional observations from a re-analysis of the deposited data

How the results depend on the processing

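Of 129 recomputed fold changes of the members, 122 kept their direction and side of the threshold and 0 changed direction. The counts of members called (1 higher, 4 lower) moved under few settings. With an assumed coefficient of variation of 0.2, 2 were lower (C5ar1 and Cfp), and with 0.4, 1 was (C5ar1). At a minimum of 5 CPM in 3 libraries 3 were lower, as C5ar1 was not tested there. Leaving out 1 library gave 1 to 3 higher and 4 lower. Of the other complement genes, 2 were higher with no filter on low counts (Masp2 was added), 0 with an assumed coefficient of 0.2 or 0.4, and 5 lower at a minimum of 5 CPM in 3 libraries, where Cd59a and C5ar2 are among the genes not tested. Leaving out 1 library gave 1 to 2 higher (Cr1l was added without spleen replicate 2) and 7 to 8 lower. Over all genes, 2868 were called with an assumed coefficient of 0.2 and 923 with 0.4, against 6569, and 5854 to 6322 on leaving out 1 library. With the length offset, 4645 of all genes were called. The difference in the log2 ratio of C1qa to C1qc ran from -0.09 to 0.30, and that of the C1qc to C1qb TPM ratio from -0.09 to 0.08, on leaving out 1 library. Both changed sign without mLN replicate 2, and the cause was not tested. Replicate numbers do not pair the tissues by the labels, and same-numbered libraries deviated together with correlations of only -0.0081 to 0.0275. With a replicate block, 1 member was higher and 4 lower, and 6455 genes were called. C5ar1 gave no value at the minimum of 5 CPM, and C3ar1, with 21 reads in mLN and 27 in spleen, was limited by depth.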
